A study of Rattus norvegicus with 11 samples.

Results

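The miR-181 family of the rat comprises miR-181a, miR-181b, miR-181c and miR-181d, and the 4 array names rno-miR-181a, rno-miR-181b, rno-miR-181c and rno-miR-181d were followed here among 340 miRNA names measured on every array. The names were chosen by family, and they were picked with earlier results of the comparison of paternal diets in view, so their differences between diets are described and not tested. The samples were pancreatic islets, the hormone-secreting cell clusters of the pancreas, of female Sprague Dawley rats aged 13 weeks. HFD daughters had fathers on pellets with 43% fat, and Control daughters had fathers on chow with 9% fat. What both groups shared was a father mated at 15 weeks, a mother on chow, and their own weaning onto chow at 3 weeks. Every sample is also listed with an insulin challenge at 11 weeks of age, between glucose challenges at 6 and 12. The islets of both groups are thus listed as coming from animals challenged before sampling. The HFD fathers were heavier and insulin resistant, and their daughters handled glucose less well at 6 and 12 weeks although their weights did not differ, per the design text. Whether any daughters were sisters is not given in the labels, so errors measure only the spread between the numbered samples. There were 11 arrays of 1 sample each, 5 HFD and 6 Control, of which 4 HFD and 4 Control lay on a first array design and 1 HFD and 2 Control on a second.

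MicroRNAs are short RNAs that guide Argonaute proteins to mRNAs, mostly by pairing of the seed near their 5′ end, and so lower the output of those mRNAs. The miR-181 family is best known from mouse lymphocytes, in which miR-181a sets the sensitivity of the T cell receptor by lowering several phosphatases. In mouse liver, miR-181a is known to act on the deacetylase gene Sirt1 and on insulin sensitivity.

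The mature 5′ arms are shown because the members share 1 seed and differ by few bases, which bears on how an array tells them apart. They come from RefSeq (build GRCr8), matched to the unstarred array names by name, and the seed (bases 2 to 8) is in capitals.
miR-181a-5p: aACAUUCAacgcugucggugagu
miR-181b-5p: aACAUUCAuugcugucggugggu
miR-181c-5p: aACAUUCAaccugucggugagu
miR-181d-5p: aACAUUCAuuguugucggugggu
Among 693 mature rat names in the RefSeq table, these 4 were the ones with the seed ACAUUCA. Counting positions from the 5′ end of the first-named miRNA, miR-181a and miR-181b differ by A9U, C10U and A21G. miR-181b and miR-181d, the closest pair without a gap, differ by C12U alone, and miR-181a and miR-181d by A9U, C10U, C12U and A21G. miR-181c is 1 base shorter than miR-181a (G11del) and otherwise has the same letters. The other pairs are further apart, with 19 identical of 23 aligned positions for miR-181b and miR-181c and 18 for miR-181c and miR-181d.

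The family lies in 3 pairs of hairpin genes, all on the plus strand for the mature arms listed. Mature miR-181a is encoded at chr13:52037081-52037103 in Mir181a-1 and at chr3:43025601-43025623 in Mir181a2. Mature miR-181b is encoded at chr13:52037263-52037285 in Mir181b1, whose hairpin starts 61 bases after that of Mir181a-1 ends. The second miR-181b hairpin, Mir181b2, spans chr3:43026666-43026753, with 986 bases between it and Mir181a2. miR-181c (chr19:40888314-40888335) and miR-181d (chr19:40888484-40888506) form the last pair, with 77 bases between their hairpins. An array signal for miR-181a therefore sums the products of 2 genes on different chromosomes.

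Each member was read by 2 probes of 10 spots each, the same probes on both designs. Signals are the software's background-subtracted intensities, summed over both probes and scaled so that arrays share 1 value of the 75th percentile, taken over 85 miRNAs that all 11 arrays detected. They are given in scaled units with the standard error (SE) over spots, and a floor of 10.3 units was applied before log2 values were taken. "Detected" is the scanner software's own call per miRNA. Intensities of different probes have no common scale, so levels were compared between arrays and not between members.

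The samples carried islet miRNAs. miR-375 and miR-7a, both abundant in endocrine cells, and miR-204 were detected on all 11 arrays, while miR-184 of the same list was detected on 0. The 4 islet markers shared by both designs summed to 10747 to 13237 scaled units on the HFD arrays of the first design and to 10241 to 14578 on its Control arrays. The liver miRNA miR-122 and the 4 muscle miRNAs were detected on 0 arrays. Of the 5 neuronal markers, miR-124 and miR-9 were detected on 0 arrays, miR-128 on 9, miR-132 on 8 and miR-137 on 10. One array stood apart. HFD 653 detected 105 of the 340 miRNAs, against 138 to 157 on the 7 remaining first-design arrays, and its negative-control spots had an SD of 12.9 intensity units, against 2.26 to 3.65 on those 7. The fitted and within-batch differences of the members are therefore given with and without it. No spot was saturated.

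miR-181a was the one member seen in most islet samples. It was detected on 4 of 5 HFD arrays and 5 of 6 Control arrays, and HFD 653 and Control 635 lacked the call. miR-181b was detected on 2 HFD arrays (HFD 603 and HFD 653) and 0 Control arrays. miR-181d was detected on HFD 653 alone, and miR-181c on 0 of 11 arrays. With a minimum of 5 arrays with a detection call, 1 of the 4 members entered the fit over 152 miRNAs. That member, miR-181a, was not called (0 of 1), beside 0 of 152 called over all miRNAs tested (0%), by limma with Benjamini-Hochberg adjustment at 0.05. At an unadjusted p under 0.05 there were 3 miRNAs of 152, and the smallest adjusted p was 0.987. With arrays left unscaled, 1 of 152 was called (0.658%), and it was no member.

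**Figure D1:**
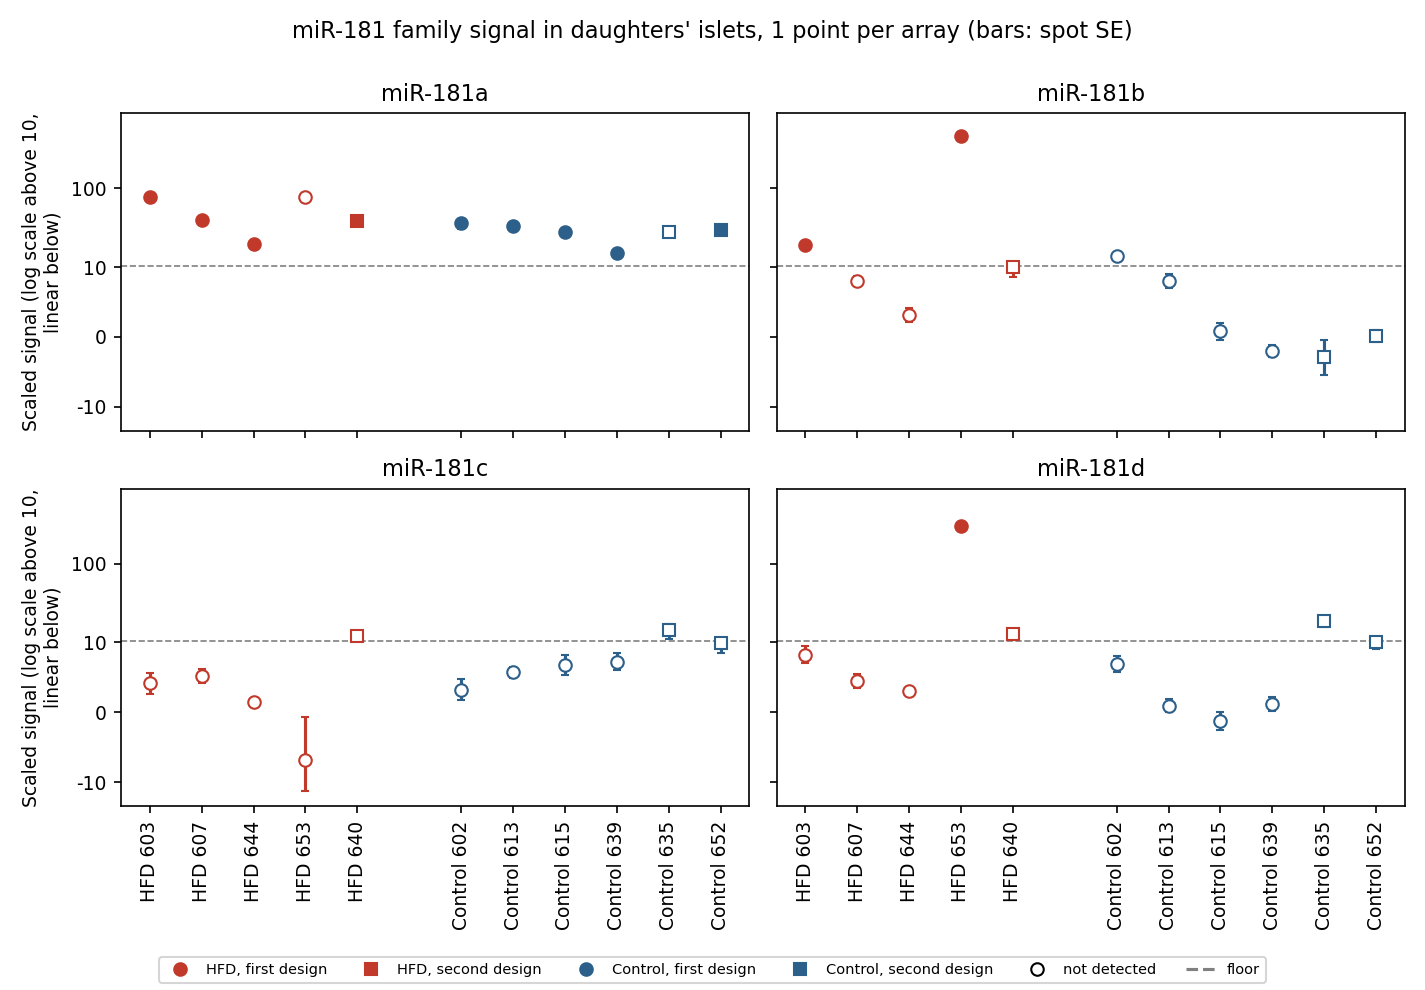
Scaled signal of each miR-181 member on each array, on an axis that is logarithmic above 10 units and linear below it, with HFD arrays in red and Control arrays in blue, circles for the first design and squares for the second, open symbols where the software made no detection call, and SE over spots as bars. miR-181a lies above the floor of 10.3 on all 11 arrays, and miR-181b and miR-181d stand out on HFD 653 at 461.8 and 297.5 units.

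On the first design, miR-181a had 77.7 ± 2.76, 39.8 ± 1.40, 19.8 ± 0.906 and 76.9 ± 9.00 scaled units (± SE over spots) in HFD 603, 607, 644 and 653. It had 36.0 ± 5.11, 33.5 ± 1.75, 28.3 ± 2.05 and 15.0 ± 1.14 in Control 602, 613, 615 and 639. HFD 603 and HFD 653 were above every Control array, HFD 607 was level with the highest Control array within its spot error, and HFD 644 was below 3 of the 4. The groups thus overlapped. The second design gave 38.3 ± 1.40 in HFD 640, against 28.2 ± 2.89 and 29.3 ± 1.13 in Control 635 and 652.

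In order of level on the first design, HFD 603 and HFD 653 came first and did not differ beyond their spot errors. HFD 607, Control 602 and Control 613 followed, and neighbours among these also lay within their spot errors. Control 615, HFD 644 and Control 639 each lay below the array before by more than both spot errors. The highest array had 5.19 times the signal of the lowest.

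The mean of miR-181a on the first design was 53.6 ± 28.6 units in HFD islets and 28.2 ± 9.38 in Control islets (SD, n = 4 each), or 45.8 ± 29.4 in HFD islets (SD, n = 3) without HFD 653. The spread between arrays was 53.5% of the mean in HFD islets and 33.3% in Control islets, while the spot SE was 3.52 to 14.2% of an array's signal. The array signals thus spread by more than their spot SE, which is the error of an array's mean and not the spread of its spots. With 1 array per sample, the islets, the labelling and the array cannot be told apart in the spread between arrays. Its within-group SD on the log2 scale was 0.72, against a median of 0.31 over the 152 miRNAs tested, at which miR-181a ranked 13 of 152 from the most variable.

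With both designs fitted together and array design as a block, miR-181a was 0.70 ± 0.38 log2 units higher in HFD than in Control islets (± SE, n = 5 HFD and 6 Control), a fitted 1.63-fold. The difference is under 2 SE and is a description, since the member was chosen with it in view. It was the third largest in size of 152. The median difference of the 152 was 0.066, with 108 above 0 and 44 below, and their median SE was 0.18, so the miR-181a difference came with a wide error too. Without HFD 653 it was 0.52 ± 0.37, without HFD 603 it was 0.52 ± 0.37, and without both it was 0.18 ± 0.31. Without Control 639, the lowest array, it was 0.49 ± 0.36.

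Within slide row 2 of the first design the sign of the miR-181a difference depended on HFD 653. The difference in mean log2 signal of miR-181a was 0.80 on the first design, or 0.56 without HFD 653, and 0.41 on the second design, which holds 1 HFD array. Within slide row 1 of the first design it was 0.68 (2 HFD and 2 Control arrays). Within slide row 2 it was 0.92 (2 and 2), and without HFD 653 it turned to -0.056, with HFD 644 at 4.31 and the mean of Control 615 and 639 at 4.36. The diet difference on the second design minus that on the first was -0.39 ± 0.91 (SE), or -0.15 ± 0.88 without HFD 653. Over all 152 miRNAs, 0 were called for this interaction (0%) by limma with Benjamini-Hochberg adjustment, 1 had an unadjusted p under 0.05, and the smallest adjusted p was 0.353. Without the detection filter, 19 of 340 were called for it (5.59%), and 0 of these were members.

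The 2 probes of miR-181a were not equally informative. Probe A_26_P00002586 read a mean of 42.2, 32.2, 16.7 and 36.2 intensity units, not scaled, in HFD 603, 607, 644 and 653, against 22.4, 27.5, 19.3 and 12.0 in Control 602, 613, 615 and 639. Probe A_26_P00001407 read 7.60, 6.88, 3.71 and 13.2 in the same HFD arrays, against 4.44, 4.23, 2.84 and 1.25 in the Control arrays. On the first design the second probe was under the floor of 10.3 scaled units on all 4 Control arrays and on HFD 607 and 644, so its values there have no order. The first probe alone gave an HFD minus Control difference of 0.61 ± 0.36 log2 units (SE), or 0.46 ± 0.37 without HFD 653. The comparison of diets for miR-181a on the first design therefore rested mainly on that probe. On the second design the 2 probes were closer, with 48.9 and 31.8 intensity units in HFD 640. The first probe read 1.41 to 1.85 times the second there, against 2.74 to 9.57 times on the first design. Why the probes differed between designs was not tested.

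The spots show what stood behind the detection calls. The 95th percentile of an array's negative-control spots was 5.80 to 6.96 intensity units on the 7 first-design arrays other than HFD 653 and 22.6 on HFD 653. Of 20 miR-181a spots, 17, 16, 10 and 9 exceeded their array's percentile on HFD 603, 607, 644 and 653, against 14, 13, 10 and 10 on Control 602, 613, 615 and 639. On HFD 653 the software marked 1 of the 20 spots as well above background. More than 10 of the 20 spots behind its high miR-181a signal thus did not exceed that percentile.

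**Figure D2:**
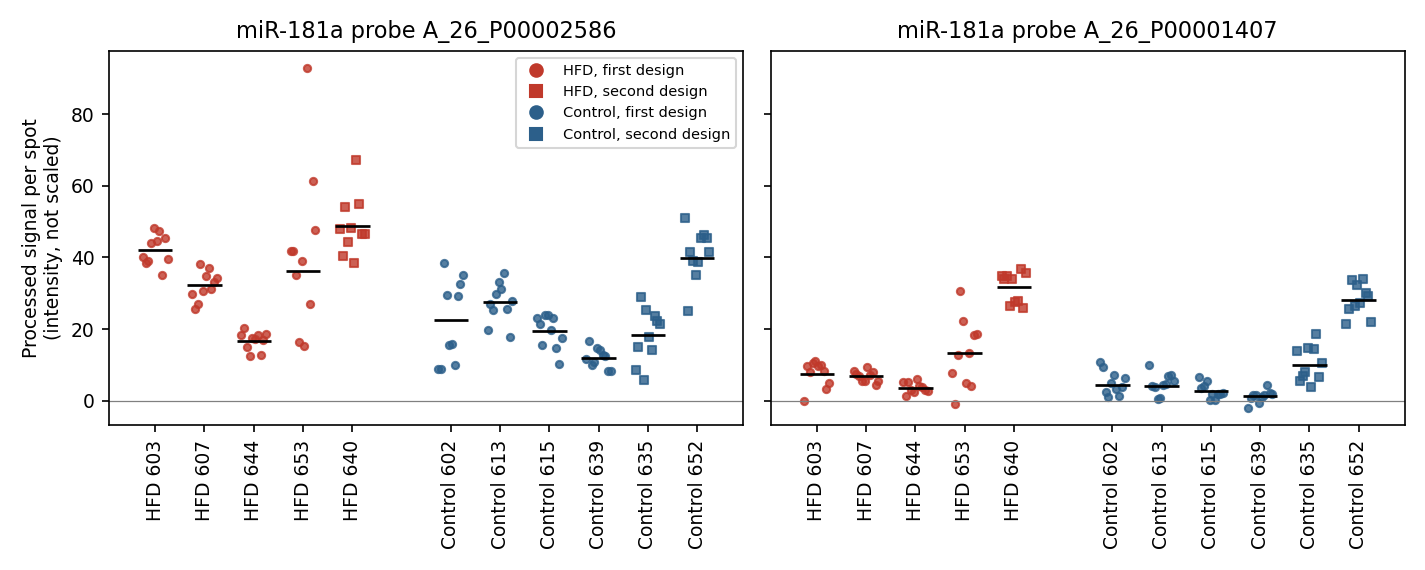
Processed intensity of each of the 10 spots of the 2 miR-181a probes on each array, before scaling, with HFD in red and Control in blue, circles for the first design and squares for the second, and the mean of the spots without an outlier flag as a black line. The spots of HFD 653 scatter more widely than those of the other first-design arrays.

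miR-181b, which in mouse endothelium is known to dampen NF-kB signalling through an importin, was near the floor in most islets. It had 18.9, 8.04, 3.17 and 461.8 scaled units in HFD 603, 607, 644 and 653, against 14.0, 8.06, 0.786 and -2.02 in Control 602, 613, 615 and 639. The second design gave 10.1 in HFD 640, against -2.92 and 0.124 in Control 635 and 652. HFD 653 was far above the rest, and the 3 remaining HFD arrays of the first design overlapped the Control arrays. No fold between diets is given, since miR-181b had no detection call on any Control array and 2 of the 4 first-design HFD arrays were below the floor. Fitted without the detection filter, miR-181b differed by 1.11 ± 0.99 log2 units (SE), or by 0.13 ± 0.20 without HFD 653. The floor held 3 of 5 HFD and 5 of 6 Control arrays and so largely set the value without HFD 653.

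miR-181d, studied in human glioma as a regulator of the DNA repair gene MGMT, followed the same outline. It had 8.25, 4.51, 3.05 and 297.5 scaled units in HFD 603, 607, 644 and 653, against 6.89, 0.956, -1.27 and 1.22 in Control 602, 613, 615 and 639. On the second design it had 12.7 in HFD 640, against 18.5 and 10.03 in Control 635 and 652. All arrays except HFD 653 were without a detection call, and on the second design Control 652 was below the floor. No fold between diets is given, since 3 of the 4 HFD and all 4 Control arrays of the first design were below the floor. Without the detection filter, the fitted difference was 0.88 ± 0.92 log2 units (SE), and without HFD 653 it was -0.03 ± 0.15. Here too the floor held 3 of 5 HFD and 5 of 6 Control arrays and so largely set the value without HFD 653.

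miR-181c, known in rat heart for acting on a mitochondrial transcript, had no detection call on any array. It had 4.15, 5.20, 1.40 and -6.87 scaled units in HFD 603, 607, 644 and 653, against 3.21, 5.69, 6.75 and 7.25 in Control 602, 613, 615 and 639. These 8 values were all below the floor, so no order was read from them. On the second design it had 12.2 in HFD 640, against 14.2 and 9.94 in Control 635 and 652. The Control 652 value was below the floor, and HFD 640 and Control 635 lay within their spot errors. The fitted difference without the detection filter was 0.0046 ± 0.070 log2 units (SE), or 0.0052 ± 0.079 without HFD 653, values set by the floor.

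On HFD 653, miR-181b and miR-181d were bright in every spot, which miR-181a and miR-181c were not. All 20 spots of miR-181b and all 20 of miR-181d exceeded the 95th percentile of the negative controls there, and 16 and 15 of them were marked well above background. The probes of miR-181b read 112 ± 63.4 and 184 ± 109 intensity units, not scaled, and those of miR-181d 89.6 ± 23.5 and 101 ± 39.6 (SD over the 10 spots or the 9 without an outlier flag). Of the miR-181c spots, 2 of 20 exceeded that percentile. Of the miR-181a spots, 9 of 20 exceeded it, and its scaled signal there, 76.9, was level with the 77.7 of HFD 603. miR-181b and miR-181d are the pair that differs by C12U alone, and they are encoded on different chromosomes. Whether either fact bears on their signals on HFD 653 was not tested.

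Other miRNAs were high on that array as well. Relative to the highest of the other 7 first-design arrays, with values under the floor set to it, HFD 653 was at 24.5 times for miR-181b and at least 29.0 times for miR-181d, which no other array of the design detected. The same ratio was 0.991 for miR-181a. For miR-181c both sides were at the floor, so no ratio is given. In all, 36 miRNAs were over 4 times the highest other array on HFD 653, of which 15 were detected there, against 0 to 2 miRNAs for each of the other 7 arrays. What set HFD 653 apart was not tested.

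**Figure D3:**
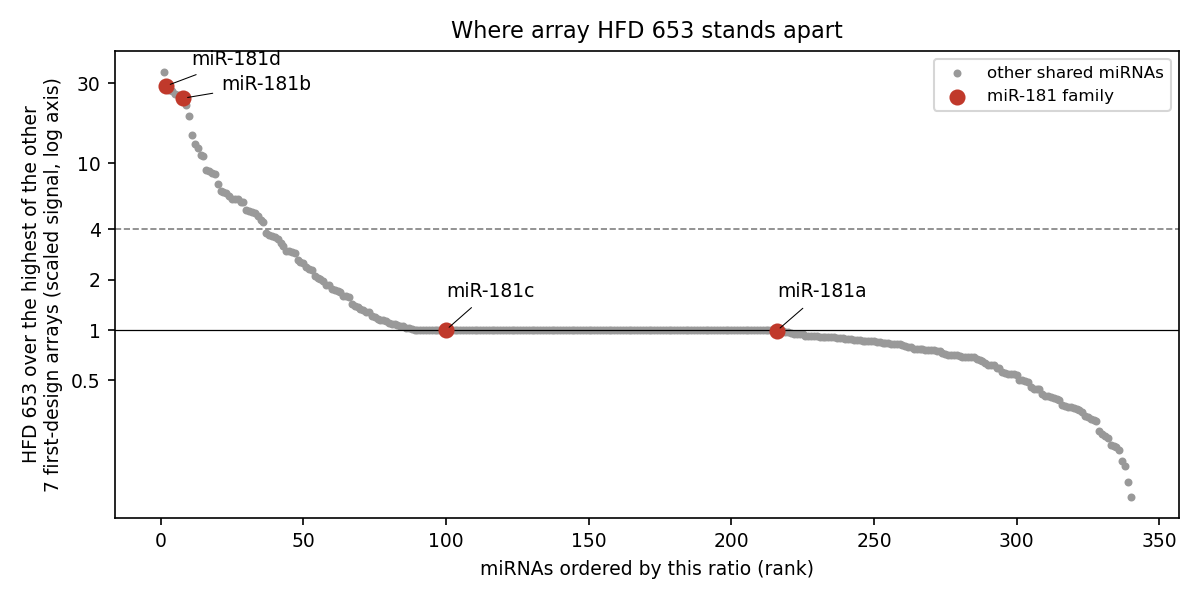
Scaled signal on HFD 653 divided by the highest of the other 7 first-design arrays (logarithmic axis), for the 340 shared miRNAs in falling order, with the 4 miR-181 members in red and a dashed line at 4 times. Values under the floor are drawn at it, and points at 1 have no order. A ratio is a lower bound where only the other 7 arrays were under the floor. It is an upper bound where only HFD 653 was under it. miR-181d is near the top at 29.0 times or more with miR-181b at 24.5, and miR-181a is at 0.991.

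The passenger strands, the opposite arms of the hairpins that are mostly discarded, were not detected. The name miR-181a* stood on the first design and was detected on 0 of 8 arrays, with -5.43 to 28.0 scaled units. On the second design the same 2 probes carry the name miR-181a-1*. That design held 6 passenger names, miR-181a-1*, miR-181a-2*, miR-181b-1*, miR-181b-2*, miR-181c* and miR-181d*, each detected on 0 of 3 arrays, with -13.6 to 5.75 units. The signal of miR-181a thus came with no detected opposite arm among those measured. The name miR-181a-2*, for the opposite arm of Mir181a2, was absent from the first design.

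The miRNAs whose levels ran most like miR-181a were sought over the 7 first-design arrays that detected it, among 124 miRNAs detected on the same arrays. This set of arrays was chosen after the values were seen, since no member was detected on all 8. The closest was miR-10a-5p, of a family encoded in the Hox gene clusters, with a Pearson r of 0.984 and a Spearman rho of 0.964 (n = 7). miR-497, of the extended miR-15 family, had r = 0.960 and rho = 1.0, and miR-10b, a close relative of miR-10a, had r = 0.949 and rho = 0.964. Without the 2 arrays farthest from the median of miR-181a, HFD 603 and Control 639, r was 0.938, 0.990 and 0.872 for miR-10a-5p, miR-497 and miR-10b (n = 5). These values describe arrays that share RNA, scaling and labelling within each sample, and the highest of 124 are high by selection.

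miR-10a-5p had log2 signals of 7.50, 6.95 and 6.46 in HFD 603, 607 and 644, against 6.86, 6.80, 6.84 and 6.36 in Control 602, 613, 615 and 639. miR-181a itself had 6.28, 5.32 and 4.31 in these HFD arrays, against 5.17, 5.07, 4.82 and 3.90 in the Control arrays. Both were highest in HFD 603 and lowest in Control 639, with HFD 644 next to lowest. The miRNAs that ran most opposite were miR-98, a let-7 relative (r = -0.90), and miR-183, of a cluster known from sensory cells (r = -0.90), and miR-340-5p followed (r = -0.80). Without HFD 603 and Control 639, r was -0.80 for miR-98, -0.59 for miR-183 and -0.84 for miR-340-5p (n = 5). miR-183 had 8.81, 9.14 and 9.30 in HFD 603, 607 and 644, against 9.14, 9.06, 9.46 and 9.51 in Control 602, 613, 615 and 639, and was lowest where miR-181a was highest.

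**Figure D4:**
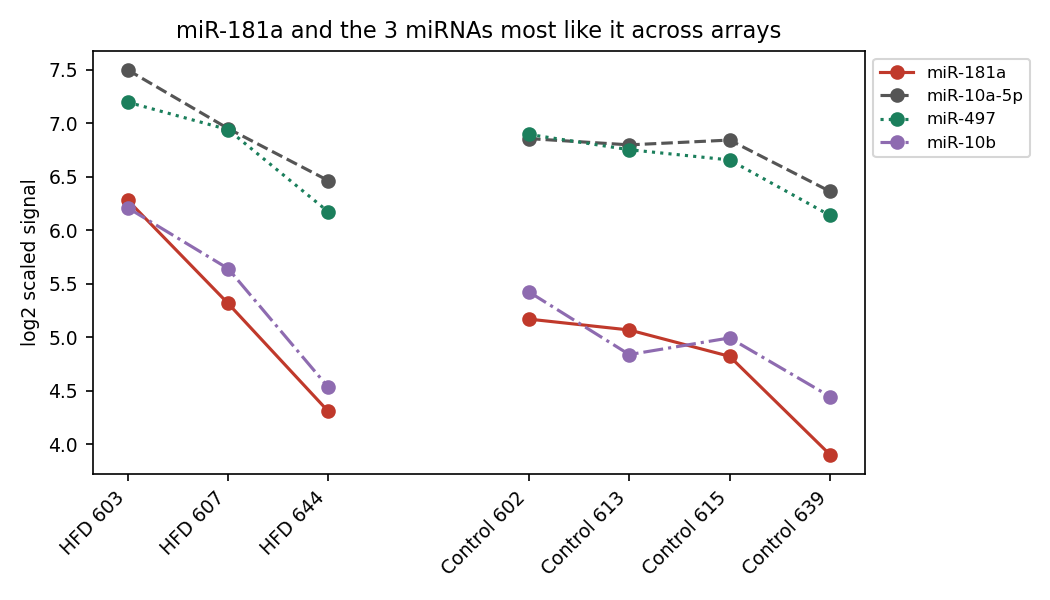
Log2 scaled signal of miR-181a and of the 3 miRNAs most like it on the 7 first-design arrays that detected miR-181a, with HFD arrays on the left and Control arrays on the right. All 4 miRNAs are highest in HFD 603 and lowest in Control 639, as for miR-181a at 6.28 and 3.90.

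Markers of other pancreatic cells varied between the same samples. The 5 mesenchymal markers (miR-143, miR-145, both arms of miR-199a, and miR-214) summed to 595, 561, 272 and 464 scaled units in HFD 603, 607, 644 and 653, against 410, 450, 460 and 263 in Control 602, 613, 615 and 639. Most of each sum was miR-143, at 522 in HFD 603 and 230 in Control 639. miR-145 and miR-199a-5p were each detected on 1 of 11 arrays. The 2 acinar markers on both designs, miR-216a and miR-217 of 4 listed, summed to 665.9, 302, 106 and 256 in the same HFD arrays, against 623, 427, 88.7 and 21.0 in the Control arrays. On the first design miR-217 was at most 4.91 units, so the acinar sum there was nearly all miR-216a. On the first design the mesenchymal and acinar sums were highest in HFD 603 and lowest in Control 639. These arrays were at the ends of the miR-181a range there, apart from HFD 653. On the second design the mesenchymal sum was 468 in HFD 640, against 628 and 363 in Control 635 and 652. The acinar sum there was 438 in HFD 640, against 459 and 369. HFD 640, the highest of these arrays in miR-181a, was thus highest in neither sum. The 7 leukocyte markers on both designs, of 8 listed, summed to 688, 318, 318 and 431 in HFD 603, 607, 644 and 653. The Control arrays of the first design had 244 to 336, a range that holds HFD 607 and HFD 644. The largest part of each first-design sum was miR-342-3p, at 264, 209, 231 and 290 in HFD 603, 607, 644 and 653. In HFD 603, miR-150 at 209 and miR-142-3p at 102 added to it. On HFD 653, 1 of the 7 was detected. Of the leukocyte markers, miR-142-5p was detected on 0 of 11 arrays and miR-142-3p on 4. The 2 endothelial markers summed to 350 to 613 on the HFD arrays of the first design and to 389 to 502 on its Control arrays. On that design miR-126* was at most 1.83 units, so the endothelial sum there was nearly all miR-126. On the second design the leukocyte sum was 375 in HFD 640, against 377 and 287 in Control 635 and 652, and the endothelial sum was 799 in HFD 640, against 783 and 689 in those Control arrays. The part of these cells in the miR-181a signal was not tested, and in whole islets fewer cells of a type and less RNA per cell cannot be told apart.

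The authors' deposited table of the second design differed from the array files at 1 value of the family. For miR-181a in HFD 640 the authors' deposited table gives a log2 value of 15.65, while the total signal in the array file, 50.1, has a log2 of 5.65. It is 1 of 7 values of the shared miRNAs in that table that were off by more than 0.01 log2 units. The other deposited values of the 4 members matched the array files within 0.01 log2 units. With the deposited tables as given, the miR-181a difference was 2.23 ± 1.31 log2 units (SE), and without that value it was 0.21 ± 0.15. Deposited first-design values match log2 of the total signal plus 50, a scale on which log2 differences of low signals are smaller. The array files were used in the text because of the HFD 640 value.

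How far the miR-181a difference moved with processing is shown by the plot of settings. It was above 0 in 39 of 40 alternatives, all but slide row 2 without HFD 653, and 0 of the 37 fitted over all miRNAs called it. Its size was 0.26 ± 0.24 with quantile normalisation, 0.14 ± 0.21 with a normexp background correction and 0.18 ± 0.15 with a robust multi-array summary, all in log2 units with SE. The normexp setting adds 50 intensity units to each spot, which makes log2 differences of low signals smaller. The sign of the miR-181a difference was itself part of what the member was chosen on.

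**Figure D5:**
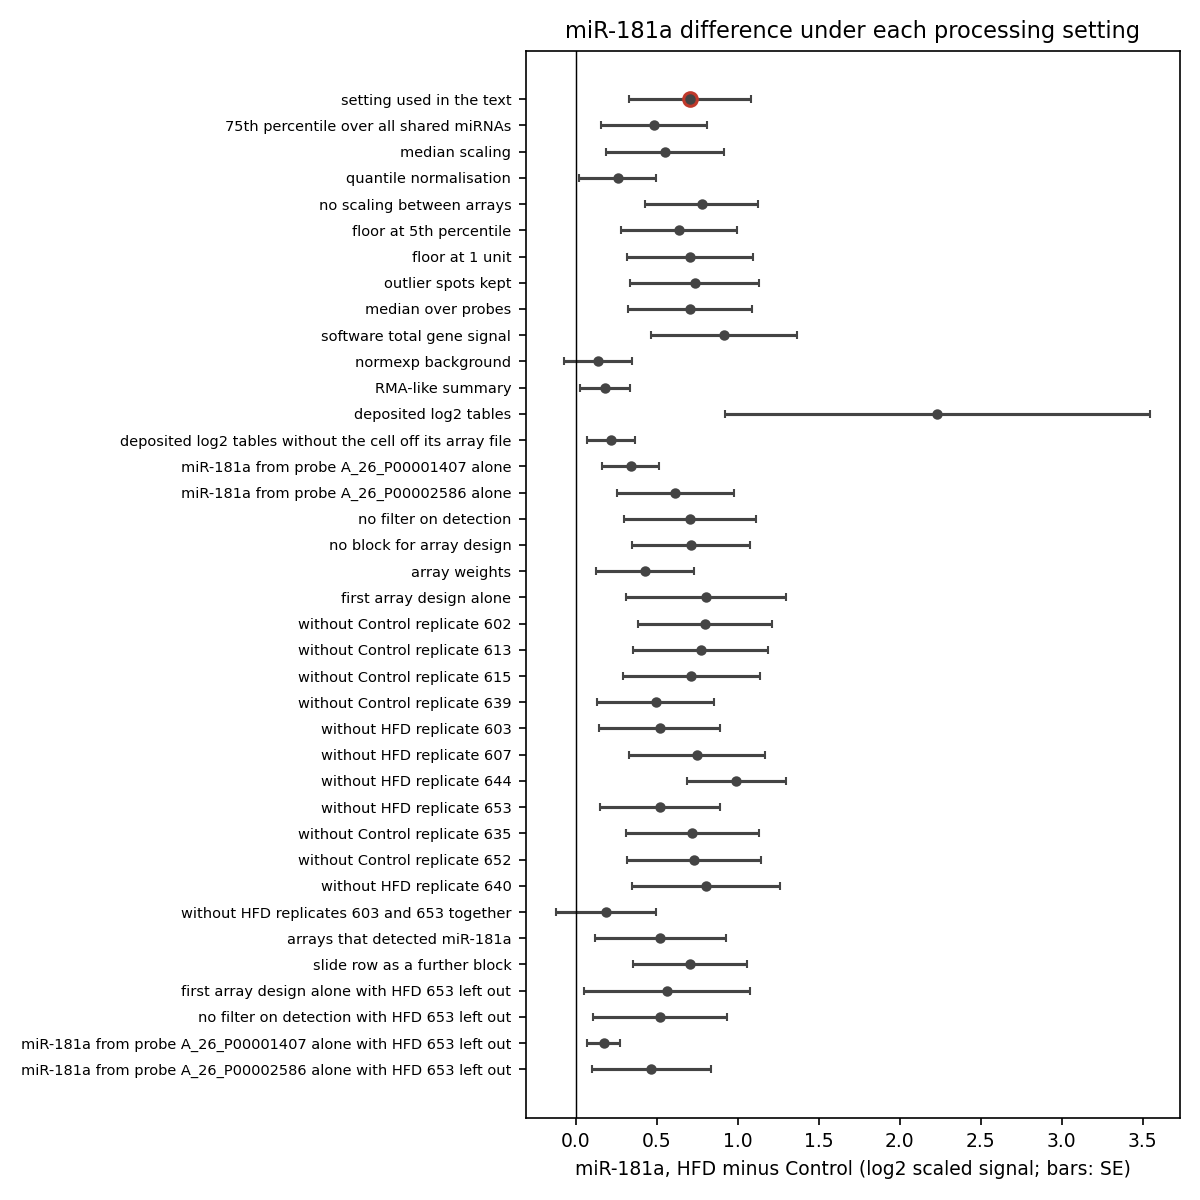
HFD minus Control difference of miR-181a in log2 units with its SE (bars) under the setting used in the text (red ring) and under the 37 alternatives fitted over all miRNAs. All points lie above 0, between 0.14 and 2.23.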

How the data were processed

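Per the labels' protocols, 100 ng of total islet RNA was Cy3-labelled for Agilent miRNA arrays read in 1 colour. The deposited spot intensity was background-subtracted within each array by Agilent Feature Extraction 10.5.1.1 (first design) or 10.7.3.1 (second), per the file headers, and was not normalised between arrays. The authors also deposited log2 values, which match log2 of the software's total signal plus 50 on the first design and log2 of detected total signals on the second. The submitters' processing notes name RMA and Partek without a version. Outlier spots were left out, spots averaged per probe and probes summed per miRNA. Arrays were scaled by their 75th percentile over 85 miRNAs that all 11 detected, floored at the 1st percentile of scaled detected values (10.3), and put on the log2 scale. HFD minus Control differences came from limma 3.58.1 (R 4.3.3) over 152 miRNAs detected on at least 5 arrays, tested 2-sided with Benjamini-Hochberg adjustment at 0.05. Array design, slide and scan coincided and were the block. Named miRNAs were the 4 members, their passenger strands, marker miRNAs and the 3 most and least like miR-181a. The rule for likeness needed a member detected on all 8 first-design arrays and named none, so the 7 that detected miR-181a were used. The planned correlation of members was not run, since 1 member was detected on 6 or more of those 8 arrays. The members and lists were chosen with earlier results of these data known. The scripts were tested on simulated data. The number of arrays limits the precision. Other scalings, floors, summaries, blocks and left-out arrays were tried. The array files hold median signals and no mean signal, so the normexp alternative used medians, with an offset of 50 added to each spot. Probe sequences were not used here.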

Additional observations from a re-analysis of the deposited data

Results flagged for a closer look

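In groups of 4 arrays of the first design, a sample was marked when its gap to the nearest other array, as a share of the group's range of log2 values, exceeded Dixon's 95% critical value. Of 5 groups of members so checked, 3 had such an array, and the remaining 3 groups of 4 had every array at the floor. Chance alone marks about 1 in 20 groups where no value is held at a floor. All 3 marked groups had arrays at the floor, so that rate does not apply to them. For miR-181b in HFD islets the share was 0.840, with HFD 653 high and HFD 607 and HFD 644 at the floor. For miR-181d in HFD islets it was 1, with HFD 653 high and the other 3 HFD arrays at the floor. For miR-181b in Control islets it was also 1, with Control 602 just above the floor, without a detection call, and the other 3 Control arrays at the floor of 10.3. A share of 1 therefore follows from the floor as soon as a single array exceeds it.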

How the results depend on the processing

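The miR-181a difference was above 0 in 39 of 40 alternatives and was called in 0 of the 37 that had a test, with adjusted p (limma, Benjamini-Hochberg) of 0.745 to 1. Leaving out 1 array at a time gave 0.49 to 0.99 log2 units. It turned to -0.056 within slide row 2 of the first design without HFD 653, an alternative added after the data were seen. Also added then were the other alternatives without HFD 653 that name a further setting. So were each miR-181a probe alone, the arrays that detected miR-181a, slide row as a further block, and slide rows 1 and 2 each alone. The difference moved by over 1.5 times in 11 alternatives, the one at -0.056 included. It was 0.26 with quantile normalisation, 0.14 with normexp background, 0.18 with the RMA-like summary, 2.23 with the deposited log2 tables, 0.21 with those tables less the HFD 640 value that differs from its array file, 0.34 with probe A_26_P00001407 alone (0.17 without HFD 653), 0.46 with probe A_26_P00002586 alone without HFD 653, 0.43 with array weights and 0.18 without HFD 603 and HFD 653. The 2.23 rests on that HFD 640 value, whose origin is not known. The normexp setting adds 50 intensity units to each spot, and deposited first-design values match log2 of the total signal plus 50. Such an added constant makes log2 differences of low signals smaller. Its share in the 0.14 and the 0.21 was not tested, nor was the cause for the others. Some scalings moved the median of all 152 miRNAs, by -0.21 with a 75th percentile from all 340 names, -0.15 with the median, -0.15 with quantiles and -0.14 with the RMA-like summary. Relative to that median, miR-181a was at 0.63, 0.64, 0.34 and 0.25 under these, and at 0.64 under the setting of the text. With arrays left unscaled, 1 miRNA was called between diets, miR-150, at 1.79 log2 units and an adjusted p of 0.00062 by limma, named after its value was seen. Without the detection filter, 19 of 340 miRNAs (5.59%) were called for the interaction of diet and array design, of which 0 were members and 1 was detected on at least 5 arrays. No paired analysis was possible because the sample numbers differ between the groups and pair no samples. The alternatives for the correlation of members were not run, as that correlation was not computed. Signal over background limits miR-181b, miR-181c and miR-181d, whose values below the floor have no order, and 2 HFD arrays and 1 Control array set much of the miR-181a difference.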
